A study of Mus musculus with 44 samples.

Results

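The respiratory chain genes of the cell nucleus were followed in CH12.LX cells, B lymphoma cells of the mouse that begin to secrete antibody when given lipopolysaccharide (LPS). Members were taken by name: every probe set of the array annotated to a single gene symbol that begins with Nduf, Uqcr, Cox4, Cox5, Cox6, Cox7, Cox8 or Atp5, and those of Sdha, Sdhb, Sdhc, Sdhd and Cycs. This gave 183 probe sets of 91 genes, among 18193 genes with a symbol of their own. By complex, 34 genes code for subunits of complex I, 8 for complex I assembly factors, 4 for complex II, 8 for complex III, 1 for cytochrome c, 19 for complex IV and 17 for complex V.

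In these cells, 5 groups received LPS and 10 nM TCDD (2,3,7,8-tetrachlorodibenzo-p-dioxin, a ligand of the aryl hydrocarbon receptor) for 8, 12, 24, 36 or 48 h. Another 5 groups received LPS and the vehicle, 0.01% dimethyl sulfoxide (DMSO), for the same times. Untreated cells were harvested at 0 h. Each of the 11 groups held 4 arrays, 44 in all, 1 from each of 4 days of treatment and harvest. LPS, vehicle and time in culture differ together between the vehicle groups and untreated cells, so their parts cannot be told apart. The replicates are cultures of 1 line from separate days, and it is their spread that the p-values measure. In such bulk samples fewer cells with a transcript and less of it per cell cannot be told apart either.

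The respiratory chain passes electrons from NADH (complex I) and succinate (complex II) through complex III and cytochrome c to oxygen at complex IV, and complex V, the ATP synthase, uses the proton gradient that this builds. Complexes I, III, IV and V combine nuclear-coded subunits with subunits coded by mitochondrial DNA, whereas complex II is coded by the nucleus alone. B cells that turn to antibody secretion expand their secretory apparatus, which draws on ATP and on amino acid supply from mitochondria.

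Levels are given as log2(intensity + 16) after quantile normalization, with 1 probe set per gene, and changes are differences on that scale. Levels of different genes were not set against each other, since each probe set has a brightness of its own. A gene was called where its adjusted p in limma, fitted to all 44 arrays and 11969 genes, was under 0.05. Of the 91 genes, 85 passed the filter, a highest group mean above 6.21. The 6 below it were Ndufb4 of complex I and the complex IV isoforms Cox6b2, Cox7a1, Cox7b2, Cox8b and Ndufa4l2, with highest group means between 4.63 and 5.89. Cox6a2 and Cox4i2 passed in some groups only, 10 and 7 of the 11, so that a difference between groups was built into their passing.

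Every one of 5 aryl hydrocarbon receptor targets was higher with TCDD at 8 h, Cyp1a1 by 5.21. Of 9 B cell markers 8 were measured and passed the filter, although Pax5 did so narrowly with a highest group mean of 6.79. Median signals of the arrays lay between 45.2 and 99.2. The 3' to 5' ratio of the transferrin receptor probe sets, a sign of RNA integrity, was 3.34 (log2) in replicate 3 of the untreated cells and 3.12 in replicate 2 of the vehicle cells at 48 h, against a median of 1.19. These 2 arrays and the 2 with the highest median signals, replicate 4 of the untreated cells (99.2) and replicate 4 of the vehicle cells at 12 h (87.9), were left out together as an alternative.

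The median member moved upward with time in both treatments. On each array the median deviation of the 85 genes from their own means over all arrays was taken. In TCDD cells it averaged -0.082 ± 0.025 at 8 h, -0.039 ± 0.010 at 12 h, 0.0049 ± 0.036 at 24 h, 0.038 ± 0.017 at 36 h and 0.099 ± 0.042 at 48 h (SD, n = 4 arrays each). In vehicle cells it averaged -0.094 ± 0.023 at 8 h, -0.052 ± 0.029 at 12 h, 0.030 ± 0.022 at 24 h, 0.041 ± 0.034 at 36 h and 0.096 ± 0.046 at 48 h. The arrays at 48 h and at 8 h did not overlap in either treatment. In untreated cells it lay between -0.051 and 0.035, above every array at 8 h of either treatment but 1 TCDD array, which at -0.046 exceeded 2 of the 4 untreated arrays. The median deviation of all genes rose too. In vehicle cells it lay between -0.018 and 0.015 at 8 h and between 0.016 and 0.076 at 48 h. In TCDD cells it lay between -0.024 and 0.0071 at 8 h and between 0.030 and 0.047 at 48 h, and in untreated cells between -0.013 and 0.056.

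**Figure D1:**
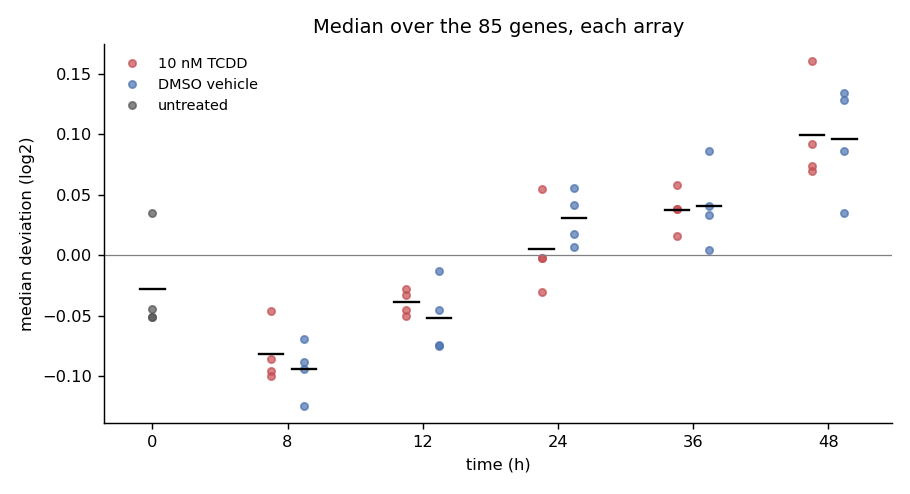
Median deviation of the 85 tested genes on each array (log2, relative to each gene's mean over 44 arrays), by time in hours, with 1 point per array and a bar at the mean of 4. Both treatments run from below 0 at 8 h to above 0 at 48 h, and the untreated arrays lie between -0.051 and 0.035.

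Between 8 h and 48 h more of these genes rose than fell in both treatments, mostly through complex I. In TCDD cells 38 of the 85 genes were higher at 48 h than at 8 h and 10 lower, while 22% of all 11969 genes were higher and 17.9% lower. The members' median change was 0.19, against 0.034 for all genes. By complex the counts were 21 higher and 2 lower of 33 for complex I, 6 and 0 of 14 for complex IV, 3 and 2 of 17 for complex V, 3 and 3 of 8 for complex III, 2 and 1 of 4 for complex II, and 3 and 2 of 8 for the assembly factors. This comparison within TCDD cells was added after the data had been seen.

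Vehicle cells, which share no array with TCDD cells but the same days, gave 44 of 85 genes higher and 12 lower at 48 h than at 8 h, beside 26.8% higher and 21.2% lower of all genes. Their median change was 0.19, against 0.042 for all genes. Complex I had 25 of its 33 subunits higher and 3 lower (median 0.36). Complex IV had 7 of 14 higher and none lower, complex V 5 of 17 higher and 3 lower, complex III 3 of 8 higher and 2 lower, and complex II 2 of 4 higher and 1 lower. The complex I assembly factors had 2 of 8 higher and 3 lower, and cytochrome c was not called. Of the 56 called genes, 46 had 4 arrays at 48 h that did not overlap the 4 at 8 h. Over all genes this held for 4577 of 5745 called ones (79.7%).

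Genes called higher in both treatments numbered 35, which is 92.1% of those in TCDD cells and 79.5% of those in vehicle cells. Another 9 were called lower in both, 90.0% of the TCDD list and 75% of the vehicle list, and 74 of 85 changes had the same sign. Of all genes, those called higher in both made up 82.9% of the TCDD list and 68.1% of the vehicle list, those called lower in both 81.6% and 68.9%, and 9571 of 11969 changes (80%) had the same sign. Whether the members differ from all genes in these shares was not tested.

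**Figure D2:**
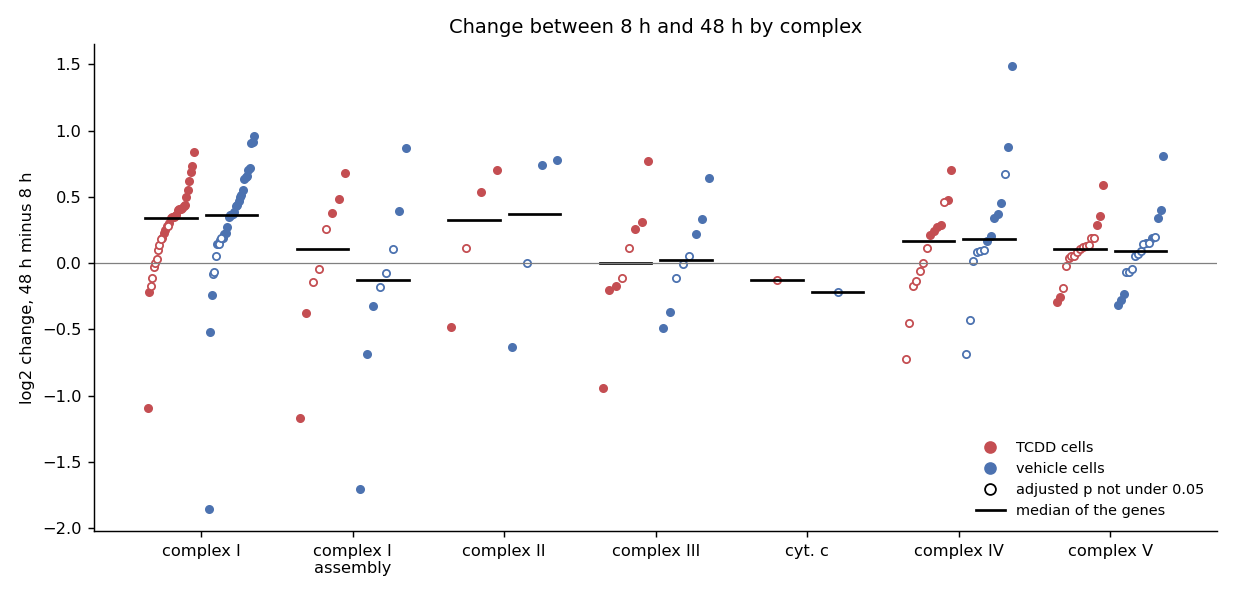
Log2 change between 8 h and 48 h for each tested gene, by complex, in TCDD cells (red, left) and vehicle cells (blue, right); filled points had an adjusted p under 0.05 in limma and bars mark medians. Complex I lies mostly above 0 in both treatments (medians 0.34 in TCDD cells and 0.36 in vehicle cells), with Ndufb1 far below it.

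Among complex I subunits the steepest rises were in Ndufa13, Ndufv3 and Ndufa6, and Ndufb1 and Ndufa5 fell the most. Ndufa13, an accessory subunit of the membrane arm also known as GRIM-19, stood at 13.16, 13.17, 13.42 and 13.14 on the TCDD arrays of 48 h, against 12.51, 12.38, 12.45 and 12.20 at 8 h. In vehicle cells its levels were 13.17, 13.17, 13.53 and 13.25 at 48 h, against 12.26, 12.26, 12.32 and 12.42 at 8 h. All arrays of 48 h lay above all of 8 h in either treatment. The change was 0.84 ± 0.097 (SE) in TCDD cells (adjusted p = 8.24e-09) and 0.96 ± 0.097 in vehicle cells (adjusted p = 1.99e-10), where it is a 1.95-fold rise of intensity + 16.

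Ndufv3, an accessory subunit of the module that oxidises NADH, had 12.06, 12.23, 12.03 and 12.11 in TCDD cells at 48 h, against 11.50, 11.40, 11.22 and 11.38 at 8 h. Vehicle cells had 12.29, 12.52, 12.20 and 12.39 at 48 h, against 11.54, 11.34, 11.22 and 11.63 at 8 h. Neither pair of groups overlapped, and the changes were 0.74 ± 0.11 in TCDD cells (adjusted p = 1.2e-06) and 0.92 ± 0.11 in vehicle cells (adjusted p = 9.52e-09). Ndufa6, an accessory subunit that holds the mitochondrial acyl carrier protein, reached 11.53, 11.63, 11.67 and 11.45 in vehicle cells at 48 h, against 10.70, 10.64, 10.60 and 10.71 at 8 h. The 2 groups stood well apart, with a change of 0.90 ± 0.072 (adjusted p = 8.84e-13).

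Ndufb1, a small accessory subunit of the membrane arm, ran the other way. TCDD cells had 9.27, 9.03, 9.31 and 9.35 at 48 h, against 10.29, 10.32, 10.26 and 10.45 at 8 h. Vehicle cells had 8.41, 8.70, 8.60 and 8.37 at 48 h, against 10.37, 10.28, 10.42 and 10.45 at 8 h. Every array of 48 h was below every array of 8 h, and the TCDD arrays of 48 h were also above the vehicle arrays of 48 h. The change was -1.09 ± 0.097 in TCDD cells (adjusted p = 2.93e-11) and -1.86 ± 0.097 in vehicle cells (adjusted p = 2.01e-17), to 0.276 of the intensity + 16 at 8 h. Ndufa5, an accessory subunit of the peripheral arm, had 11.88, 11.98, 11.76 and 11.84 in TCDD cells at 48 h, against 12.18, 12.01, 12.06 and 12.07 at 8 h. In vehicle cells it had 11.42, 11.83, 11.57 and 11.65 at 48 h, against 12.22, 12.05, 12.06 and 12.23 at 8 h. Neither pair of groups overlapped, and the changes were -0.21 ± 0.084 in TCDD cells (adjusted p = 0.0392) and -0.52 ± 0.084 in vehicle cells (adjusted p = 2.78e-06).

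The core subunits of complex I did not move as one. Ndufv1, which binds the flavin that takes electrons from NADH, was higher by 0.63 ± 0.086 in vehicle cells (adjusted p = 1.06e-07), with 12.14, 12.47, 12.24 and 12.10 at 48 h and 11.65, 11.71, 11.56 and 11.51 at 8 h. Those 2 groups did not overlap. Ndufs1, the largest iron-sulfur subunit, was not called in TCDD cells (-0.11 ± 0.095, adjusted p = 0.384). In vehicle cells it had 11.49, 10.98, 11.57 and 11.47 at 48 h and 11.78, 11.50, 11.72 and 11.47 at 8 h. These groups overlapped, and the change of -0.24 ± 0.095 (adjusted p = 0.0348) was not called without replicate 2 (-0.15, adjusted p = 0.263), whose vehicle array at 48 h is the one with a high transferrin receptor ratio, nor without replicate 1 or replicate 3 (adjusted p = 0.125 and 0.058). Of the other core subunits, Ndufv2 (0.36), Ndufs8 (0.37) and Ndufs7 (0.22) were called higher in vehicle cells, and Ndufs3 was not called (-0.080, adjusted p = 0.367).

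**Figure D3:**
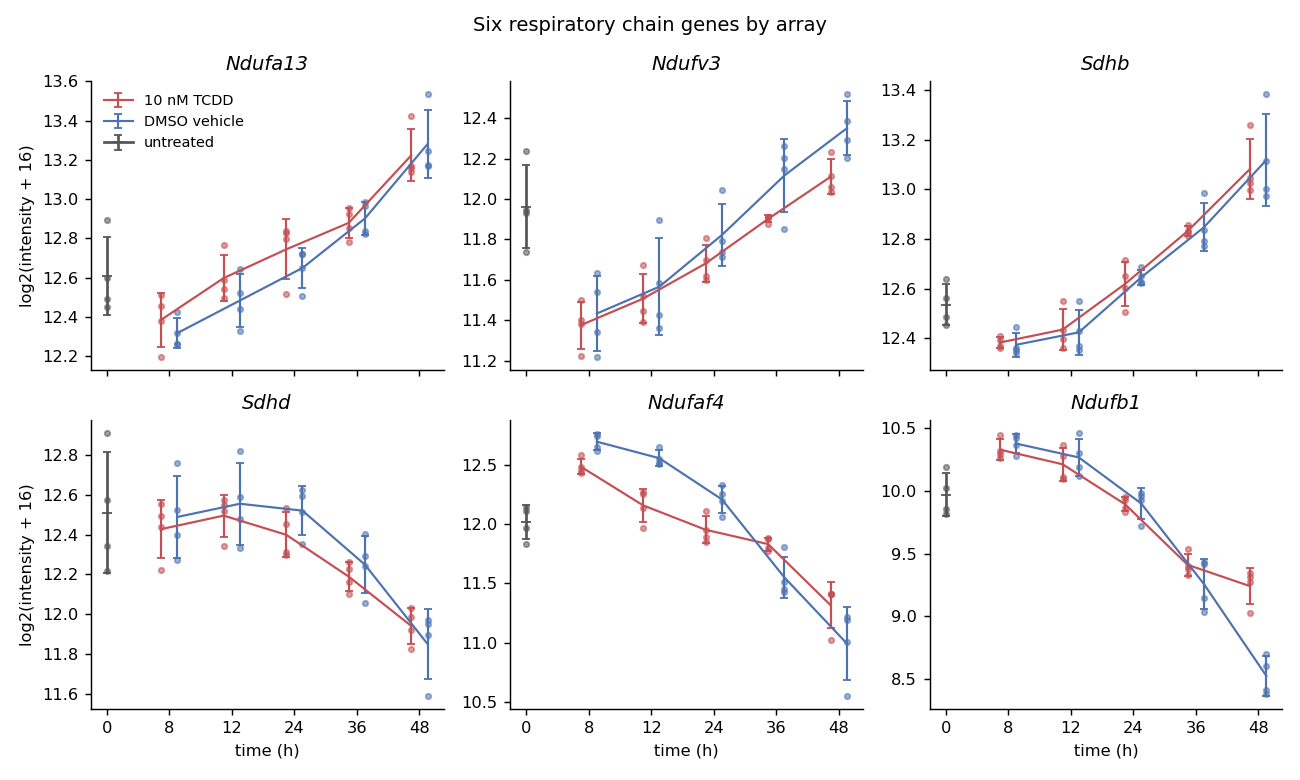
Levels of 6 genes on each array (points) with means and SDs of 4 arrays (lines and bars), in log2(intensity + 16), for TCDD cells (red), vehicle cells (blue) and untreated cells (grey); times in hours are evenly spaced on the axis and the vertical axes differ between panels and do not start at 0. Ndufa13, Ndufv3 and Sdhb climb to 48 h, while Sdhd, Ndufaf4 and Ndufb1 decline. TCDD cells were called lower than vehicle cells at 12 h for Ndufaf4 and higher at 48 h for Ndufb1.

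The 8 assembly factors, which help to build complex I but are not part of the finished enzyme, split in direction. Ndufaf4, which acts early in assembly together with Ndufaf3, had 11.41, 11.41, 11.02 and 11.41 in TCDD cells at 48 h, against 12.45, 12.43, 12.48 and 12.58 at 8 h. In vehicle cells it had 11.01, 11.19, 10.55 and 11.22 at 48 h, against 12.65, 12.61, 12.75 and 12.76 at 8 h. All arrays of 48 h were below all of 8 h, and the changes were -1.17 ± 0.11 in TCDD cells (adjusted p = 6.45e-11) and -1.70 ± 0.11 in vehicle cells (adjusted p = 2.27e-15). A second probe set of Ndufaf4 changed by -2.33 in vehicle cells (adjusted p = 3.97e-16).

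Ndufaf3 was higher in vehicle cells by 0.87 ± 0.097 (adjusted p = 2.29e-09), with 10.02, 10.29, 10.54 and 10.46 at 48 h and 9.49, 9.30, 9.57 and 9.49 at 8 h. The groups lay apart. Ndufaf2, a late-acting factor related to the subunit Ndufa12, fell in vehicle cells by 0.69 on the log2 scale (SE 0.10, adjusted p = 5.05e-07), with 10.15, 9.88, 10.06 and 9.96 at 48 h and 10.86, 10.59, 10.62 and 10.72 at 8 h. Again no array overlapped. Ndufaf1 (-0.32) was also called lower in vehicle cells and Ndufaf7 (0.39) higher, and Ndufaf5, Ndufaf6 and Ndufaf8 were not called. With the day as a block, Ndufaf8 (-0.18) was called lower (adjusted p = 0.0378).

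Promoters are shown for the 2 called genes that rose most and the 2 that fell most in vehicle cells, among those with a single entry in the RefSeq promoter table, so that the start regions of 2 rising and 2 falling genes can be compared. Each runs 5′ to 3′ from 250 bases before to 50 bases after the annotated start on build GRCm38.p6. Capitals mark matches on either strand to 3 cores named for factors linked to respiratory genes: NRF1 (GCATGCGC), ETS factors such as GABPA (CCGGAAG) and YY1 (AAGATGGC).
Ndufa13, chr8:69901971-69902270, minus strand: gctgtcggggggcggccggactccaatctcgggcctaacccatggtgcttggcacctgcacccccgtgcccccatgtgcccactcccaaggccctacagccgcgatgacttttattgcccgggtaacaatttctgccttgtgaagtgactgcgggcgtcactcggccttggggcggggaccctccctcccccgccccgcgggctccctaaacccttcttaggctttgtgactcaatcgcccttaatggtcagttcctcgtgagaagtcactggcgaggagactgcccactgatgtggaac
Ndufv3, chr17:31519865-31520164, plus strand: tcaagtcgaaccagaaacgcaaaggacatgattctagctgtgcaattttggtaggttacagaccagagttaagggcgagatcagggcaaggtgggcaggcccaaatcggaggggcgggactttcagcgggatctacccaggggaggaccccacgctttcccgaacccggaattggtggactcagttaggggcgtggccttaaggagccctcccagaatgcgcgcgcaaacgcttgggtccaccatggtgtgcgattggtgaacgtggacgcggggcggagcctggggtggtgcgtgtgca
Ndufb1, chr12:101975689-101975988, minus strand: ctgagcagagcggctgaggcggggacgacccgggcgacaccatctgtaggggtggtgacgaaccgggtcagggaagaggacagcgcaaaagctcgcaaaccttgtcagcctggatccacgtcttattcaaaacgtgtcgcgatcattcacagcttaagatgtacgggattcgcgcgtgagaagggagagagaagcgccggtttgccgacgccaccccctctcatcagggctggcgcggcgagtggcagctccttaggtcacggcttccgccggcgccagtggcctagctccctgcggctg
Ndufaf4, chr4:24897833-24898132, plus strand: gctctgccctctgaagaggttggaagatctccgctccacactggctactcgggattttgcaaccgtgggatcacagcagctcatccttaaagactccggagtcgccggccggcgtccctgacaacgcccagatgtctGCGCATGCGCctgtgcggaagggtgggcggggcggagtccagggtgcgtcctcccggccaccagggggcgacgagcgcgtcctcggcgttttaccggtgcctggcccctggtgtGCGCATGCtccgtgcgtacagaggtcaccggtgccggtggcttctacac
Of these 4 windows only that of Ndufaf4 held a match: the NRF1 core in both orientations, in overlapping copies that begin at positions -113 and -111 relative to the start, and once more from position 2 after it. The ETS and YY1 letters were in none of the 4 windows.

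Over the 75 member genes with a promoter in the table, 12 held the NRF1 core (16%), against 824 of all 27025 genes (3.05%). The ETS core was in 19 (25.3%), against 9.93% of all genes, and the YY1 core in 10 (13.3%), against 3.19%. The dioxin response element core GCGTG, the letters bound by the aryl hydrocarbon receptor with its partner, was in 43 (57.3%), against 35.2%. Among members higher in vehicle cells at 48 h than at 8 h, 7 of 37 held the YY1 core, 5 the NRF1 core, 8 the ETS core and 16 the dioxin core. Among members that were lower, 0 of 11 held the YY1 core, 2 the NRF1 core, 4 the ETS core and 8 the dioxin core. These are counts of letters in a window, with no measure of binding. All genes here are those of the promoter table, whether or not they passed the filter. Of the 91 members 85 did pass it, so the shares rest on unlike sets.

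Complex II, succinate dehydrogenase, moved in opposite directions among its 4 subunits. Sdhb, which carries the iron-sulfur clusters, had 12.998, 13.04, 13.26 and 13.03 in TCDD cells at 48 h, against 12.39, 12.36, 12.41 and 12.37 at 8 h. In vehicle cells it had 13.001, 12.97, 13.38 and 13.11 at 48 h, against 12.35, 12.36, 12.44 and 12.34 at 8 h. There was no overlap, and Sdhb rose by 0.70 ± 0.072 in TCDD cells (adjusted p = 7.37e-10) and by 0.74 ± 0.072 in vehicle cells (adjusted p = 8.81e-11). Sdhc, one of the membrane anchors, rose by 0.78 ± 0.18 in vehicle cells (adjusted p = 0.000357), with 11.31, 11.57, 11.72 and 11.89 at 48 h and 10.39, 10.93, 11.08 and 10.95 at 8 h. The groups were apart although replicate 1 was the lowest in each.

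Sdhd, the other anchor, had 11.83, 11.99, 12.03 and 11.92 in TCDD cells at 48 h, against 12.22, 12.49, 12.56 and 12.44 at 8 h. Vehicle cells had 11.90, 11.59, 11.97 and 11.95 at 48 h, against 12.27, 12.52, 12.76 and 12.40 at 8 h. Both pairs of groups were apart, and the changes were -0.48 ± 0.12 in TCDD cells (adjusted p = 0.00107) and -0.64 ± 0.12 in vehicle cells (adjusted p = 2.59e-05). A second probe set of Sdhd was called lower in vehicle cells too (-0.78, adjusted p = 0.00409). Sdha, the flavoprotein that oxidises succinate, had 12.75, 12.58, 12.62 and 12.55 in vehicle cells at 48 h and 12.65, 12.66, 12.56 and 12.63 at 8 h. These overlapped, with a change of -0.0021 ± 0.068 (adjusted p = 0.985), whereas a second Sdha probe set was called higher by 0.46 (adjusted p = 0.00243).

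Complex III showed a like division. Uqcrq, a small subunit that contacts cytochrome b, rose in vehicle cells by 0.64 ± 0.096 (adjusted p = 6.77e-07), with 13.36, 13.63, 13.72 and 13.59 at 48 h and 12.75, 12.86, 13.08 and 13.03 at 8 h. The groups were apart, but the mean of its 4 probe sets, 3 of them dim, changed by -0.029. Uqcrh, the acidic hinge protein near the docking site of cytochrome c, had 12.26, 12.36, 12.00 and 12.44 in TCDD cells at 48 h, against 13.39, 13.01, 13.20 and 13.23 at 8 h. In vehicle cells it had 12.62, 12.65, 12.22 and 12.62 at 48 h, against 13.26, 12.79, 12.79 and 13.23 at 8 h. All arrays of 48 h were lower, and the change was -0.94 ± 0.12 in TCDD cells (adjusted p = 7.29e-08) and -0.49 ± 0.12 in vehicle cells (adjusted p = 0.000872).

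Uqcrfs1, the Rieske iron-sulfur protein, was lower in vehicle cells at 48 h, with 13.002, 12.61, 13.07 and 12.84, against 13.27, 13.26, 13.20 and 13.27 at 8 h. These were apart, with a change of -0.37 ± 0.072 (adjusted p = 5.43e-05). Uqcrc1, a core protein, was not called, with 13.07, 13.21, 13.35 and 13.32 at 48 h and 13.02, 13.10, 13.38 and 13.23 at 8 h, which overlapped (0.054 ± 0.084, adjusted p = 0.64). Uqcrc2 (0.33) and Uqcr10 (0.22) were called higher, and Uqcrb and Uqcr11 were not called in vehicle cells. Cycs, cytochrome c itself, had 14.08, 14.09, 13.68 and 14.04 in vehicle cells at 48 h and 14.37, 14.47, 13.85 and 14.08 at 8 h. The groups overlapped and the change of -0.22 ± 0.12 was not called (adjusted p = 0.144), but with the day as a block the adjusted p was 0.0313.

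In complex IV the called rises in vehicle cells lay between 0.17 for Cox5a and 1.49 for Cox6a2. Neither gene was called in TCDD cells (0.12 and 0.46, adjusted p = 0.174 and 0.33). Cox4i1 had 13.79, 13.96, 14.004 and 13.83 in vehicle cells at 48 h, against 13.64, 13.69, 13.67 and 13.77 at 8 h. They did not overlap, with a change of 0.20 ± 0.053 (adjusted p = 0.00165), which was not called without replicate 3 (0.16, adjusted p = 0.0575). Cox5a, with 14.31, 14.45, 14.15 and 14.30 at 48 h and 14.17, 14.23, 14.06 and 14.09 at 8 h, changed by 0.17 ± 0.067 (adjusted p = 0.0387). Its groups overlapped, and it was not called without replicate 1, 2 or 4 (adjusted p = 0.113, 0.139 and 0.148). In vehicle cells Cox5b (0.34), Cox6a1 (0.37) and Cox8a (0.46) were called higher, and Cox6b1, Cox6c, Cox7a2 and Ndufa4 were not called. Cox6c was called higher in TCDD cells (0.24, adjusted p = 0.00622).

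Cox7a2l, which joins complexes III and IV into supercomplexes, is also known as SCAF1. It had 12.73, 12.87, 12.75 and 12.44 in vehicle cells at 48 h, against 11.92, 11.66, 11.88 and 11.83 at 8 h, with no overlap and a change of 0.87 ± 0.11 (adjusted p = 1.96e-08). Cox6a2, known as the isoform of heart and skeletal muscle, is a dim probe set here, at 7.75, 7.52, 8.11 and 7.68 in vehicle cells at 48 h and 6.73, 6.69, 5.44 and 6.25 at 8 h. The groups were apart (1.49 ± 0.36, adjusted p = 0.000724), and its counterpart Cox6a1 changed by 0.37 ± 0.077. Cox4i2, the lung isoform, had 6.63, 6.84, 6.98 and 6.24 at 48 h and 5.05, 5.87, 6.30 and 6.80 at 8 h, which overlapped (0.67 ± 0.34, adjusted p = 0.11). Cox7c, measured by dim probe sets only, changed by -0.69 ± 0.30 (adjusted p = 0.0578, and 0.0269 with the day as a block).

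In complex V the alpha and beta subunits of the catalytic head were not called, nor was the gamma subunit of the central stalk. Atp5b, the beta subunit that makes ATP, had 14.20, 14.30, 14.28 and 14.31 in vehicle cells at 48 h and 14.09, 14.21, 14.22 and 14.22 at 8 h, which overlapped (0.090 ± 0.066, adjusted p = 0.277). Atp5a1, the alpha subunit, changed by -0.069 and Atp5c1, the gamma subunit, by 0.072. Atp5e, the epsilon subunit of the central stalk, had 12.32, 12.75, 12.75 and 12.45 at 48 h, against 11.92, 11.67, 11.68 and 11.79 at 8 h. No array overlapped and the change was 0.81 ± 0.090 (adjusted p = 2.34e-09). The 3 genes for the same c-ring protein parted in vehicle cells, Atp5g2 being higher (0.40, adjusted p = 2.55e-05) and Atp5g1 (-0.24, adjusted p = 0.0134) and Atp5g3 (-0.31, adjusted p = 0.000224) lower. Atp5k (-0.28), a membrane subunit, was lower as well.

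Other probe sets of the same genes did not always follow. Of the 36 called genes with several probe sets in the vehicle comparison of 48 h with 8 h, 24 had another probe set called the same way. In 5 of them, Atp5j2, Ndufa7, Ndufab1, Ndufb8 and Ndufs4, another probe set was called the opposite way. Of these, Ndufa7, Ndufab1, Ndufb8 and Ndufs4 are complex I subunits that were counted among its rises. The same shares were not counted over all genes. Without the 4 arrays that stood apart, 41 members were higher and 13 lower, beside 26.4% higher and 22.2% lower of all genes.

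**Figure D4:**
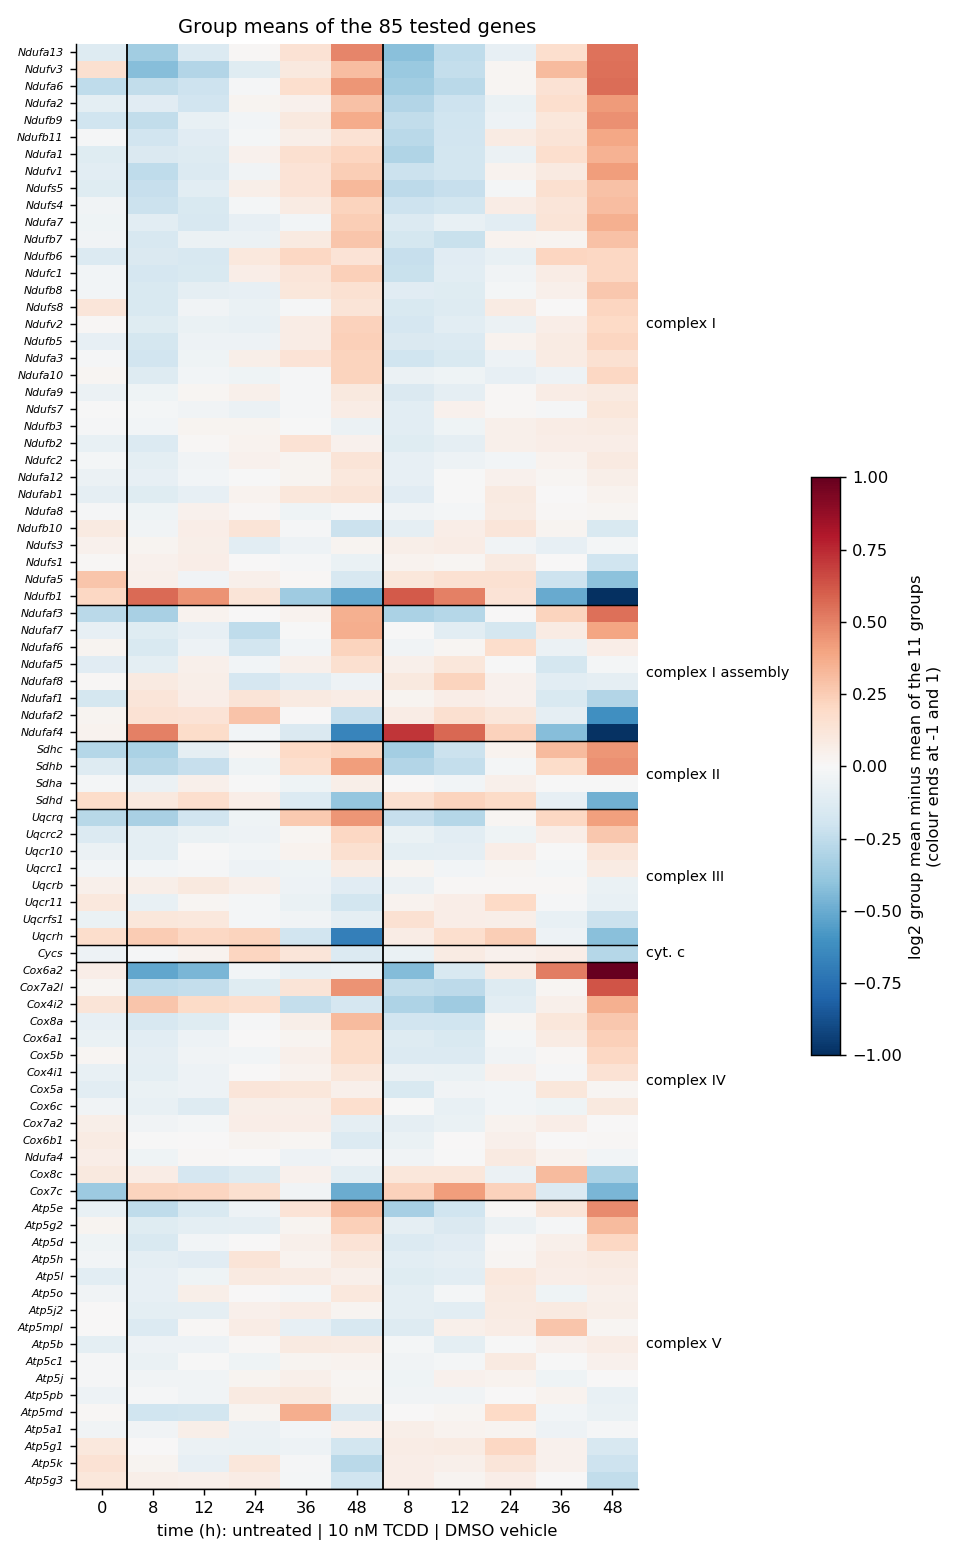
Mean of each group for the 85 tested genes, as the log2 difference from the gene's mean over the 11 groups (red higher, blue lower), with genes ordered within each complex by their vehicle change between 8 h and 48 h. Untreated cells are on the left, then TCDD cells and vehicle cells from 8 h to 48 h; the complex I block turns from blue to red with time in both treatments.

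Set against untreated cells, vehicle cells had a smaller share of members than of all genes called in either direction at 8, 12, 24 and 36 h in the fit without the day, though not in the blocked fit for higher calls at 36 h. At 48 h the share called higher was above that of all genes and the share called lower below it. At 8 h, 3 genes were higher and 6 lower, beside 11.2% higher and 13.4% lower of all genes, and with the day as a block 4 were higher and 14 lower (32.4% of all genes called). Ndufaf4 (0.68), Ndufb1 (0.41) and Uqcrfs1 (0.22) were the higher ones, and Ndufv3 (-0.53), Ndufa13 (-0.29), Atp5e (-0.26), Ndufb11 (-0.26), Ndufc1 (-0.20) and Ndufa3 (-0.19) the lower ones. Without the 4 arrays that stood apart, 3 of the 85 were called, beside 20.6% of all genes. Ndufaf4 had 12.65, 12.61, 12.75 and 12.76 in vehicle cells at 8 h, against 11.83, 11.97, 12.11 and 12.15 in untreated cells, with no overlap (adjusted p = 7e-06). Ndufv3 had 11.54, 11.34, 11.22 and 11.63 at 8 h, against 11.94, 11.74, 11.93 and 12.24 in untreated cells, again with no overlap (adjusted p = 0.000329). Of the calls refitted gene by gene, Ndufa13 was lost without replicate 1, 3 or 4 (adjusted p = 0.0809, 0.0762 and 0.122), and Uqcrfs1 and Atp5e were lost without replicate 2, 3 or 4 (adjusted p between 0.0566 and 0.196).

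At 12 h only 2 genes were higher (Ndufaf4 and Ndufb1) and 2 lower (Ndufv3 and Ndufb11), beside 11% and 13.8% of all genes, and with the day as a block 6 were higher and 6 lower (32.9%). Leaving out single days ended the call of Ndufb1 (without replicate 1, 2 or 3), of Ndufb11 (without 2, 3 or 4) and of Ndufv3 (without 3), with adjusted p between 0.0518 and 0.179. At 24 h, 5 were higher and 0 lower, beside 9.38% and 10.4%, and 8 with the day as a block (27.7%). They were Uqcrq (0.30), Ndufaf3 (0.28), Ndufa6 (0.27), Atp5l (0.21) and Ndufab1 (0.18). Without replicate 1 the call of Ndufa6 was lost (adjusted p = 0.0672), and those of Uqcrq and Ndufaf3 were lost without replicate 2, 3 or 4 (adjusted p between 0.0965 and 0.159).

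At 36 h, 12 were higher and 3 lower, beside 15.4% and 15.9%, and 19 and 4 with the day as a block (39.5%). The 3 lower genes were Ndufb1 (-0.72), Ndufa5 (-0.49) and Ndufaf4 (-0.46), and Sdhc (0.60), Ndufaf3 (0.49) and Uqcrq (0.48) had the largest rises. The call of Sdhc was lost without replicate 2, 3 or 4 (adjusted p = 0.0613, 0.0655 and 0.0722). At 48 h, 33 were higher and 10 lower, beside 23.4% and 20.5% of all genes. Complex I then had 16 higher and 3 lower of 33, complex IV 6 and 0 of 14, and complex V 5 and 3 of 17. Among the called genes of 48 h, Ndufaf3 (0.82) and Ndufa6 (0.81) rose with no overlap between groups. The dim Cox6a2 (0.99) overlapped and was not called without replicate 1, 2 or 3 (adjusted p = 0.0862, 0.113 and 0.181). Ndufb1 (-1.45), Ndufaf4 (-1.02) and Ndufa5 (-0.69) were furthest below the untreated level. Ndufb1 and Ndufaf4 were thus above the untreated cells at 8 h and below them at 48 h.

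Markers of cell types also differed from untreated cells. The summed signal of 8 measured B cell markers was 49754 to 58759 in vehicle cells at 8 h, against 66256 to 73564 in untreated cells. That of 6 T cell markers was 1187 to 1491, against 2301 to 3046 in untreated cells, mostly through Cd2 (-1.95), while Cd8a was higher (0.63) and Cd3d and Cd4 did not pass the filter. Their part in the results on members was not tested.

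TCDD against vehicle of the same time moved few members. At 8 h none was called with limma (4.14% of all genes were), 0 had an unadjusted p under 0.05, and with the day as a block none was called and 3 had an unadjusted p under 0.05. At 12 h, 2 of 85 were called (9.22% of all genes), at 24 h 2 (7.59%, and 4 with the day as a block beside 13.6%), at 36 h none (5.91%, with 5 at an unadjusted p under 0.05 and 2 called with the day as a block beside 10.9%), and at 48 h 5 (8.85%, and 9 with the day as a block beside 15.6%). The shares of members called were below those of all genes at every time. The summed signal of 7 myeloid markers was 1900.0 to 2209.8 in TCDD cells at 8 h, against 815 to 1027 in vehicle cells, and 1601 to 1693 at 48 h, against 629 to 729. Only Csf1r, the receptor for colony stimulating factor 1, was called among them at 8 h (1.81), with Adgre1 (0.93) beside it at 48 h, whereas Lyz2, Itgam, S100a8 and S100a9 did not pass the filter. Their part in the results on members was not tested. The median change of the 85 members lay between -0.023 at 24 h and 0.020 at 12 h. These 5 comparisons share no arrays with each other, but those at 8 h and 48 h share arrays with the comparisons over time.

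At 12 h Ndufaf4 was lower and Ndufaf3 higher with TCDD. Ndufaf4 had 12.14, 11.97, 12.26 and 12.27 in TCDD cells, against 12.50, 12.55, 12.52 and 12.65 in vehicle cells. No array overlapped, with a change of -0.40 ± 0.11 (adjusted p = 0.0137). Ndufaf3 had 9.57, 9.83, 9.81 and 10.06 in TCDD cells, against 9.30, 9.63, 9.46 and 9.58 in vehicle cells, and they overlapped, although TCDD was the higher on all 4 days (0.32 ± 0.097, adjusted p = 0.0286). Neither call held without replicate 2 or replicate 4 (adjusted p between 0.0664 and 0.196), nor did that of Ndufaf4 without replicate 1 (0.0701) or that of Ndufaf3 without replicate 3 (0.155). Blocked by day, with all arrays kept, the adjusted p was 0.0035 for Ndufaf4 and 0.00137 for Ndufaf3.

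At 24 h Ndufaf6, another assembly factor, had 10.27, 10.46, 10.33 and 10.02 in TCDD cells, against 10.48, 10.80, 10.53 and 10.75 in vehicle cells. All TCDD arrays were lower (-0.37 ± 0.097, adjusted p = 0.0121), but without replicate 4 the change was -0.24 and the adjusted p 0.279. Atp5g1, a c-ring gene, had 13.20, 13.24, 13.36 and 13.14 in TCDD cells, against 13.45, 13.53, 13.55 and 13.48 in vehicle cells. These were apart as well (-0.27 ± 0.079, adjusted p = 0.028), and the call was lost without replicate 1, 2 or 4 (adjusted p = 0.0953, 0.159 and 0.241). With the day as a block and all arrays kept, the adjusted p was 0.0042 for Ndufaf6 and 0.0046 for Atp5g1. Ndufaf8 and Uqcr11 were also called lower in that blocked fit.

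At 48 h the called members were Ndufb1, Ndufaf1 and Ndufaf2, higher with TCDD, and Cox6a2 and Ndufb11, lower. Ndufb1 had 9.27, 9.03, 9.31 and 9.35 in TCDD cells, against 8.41, 8.70, 8.60 and 8.37 in vehicle cells. Each TCDD array was above each vehicle array, and the change of 0.72 ± 0.097 (1.65-fold, adjusted p = 2.15e-06) was called under every alternative tried. Ndufaf1, a factor of early assembly, had 10.95, 10.99, 11.03 and 11.10 in TCDD cells, against 10.72, 10.52, 10.68 and 10.68 in vehicle cells. It too was apart (0.37 ± 0.094, adjusted p = 0.00819), with the call lost without replicate 4 (adjusted p = 0.0961). Blocked by day, with all arrays kept, its adjusted p was 4.49e-05.

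Ndufaf2 had 10.55, 10.18, 10.39 and 10.46 in TCDD cells, against 10.15, 9.88, 10.06 and 9.96 in vehicle cells. All TCDD arrays were higher (0.38 ± 0.10, adjusted p = 0.0106), and the call was lost without replicate 1, 3 or 4 (adjusted p = 0.0557, 0.0835 and 0.0985). Blocked by day, with all arrays kept, the adjusted p of Ndufaf2 was 5.99e-05. Ndufb11, an accessory subunit of the membrane arm, had 13.10, 13.13, 13.26 and 13.09 in TCDD cells, against 13.32, 13.49, 13.40 and 13.33 in vehicle cells. They were apart (-0.24 ± 0.060, adjusted p = 0.00678), and the call was lost without replicate 2 (adjusted p = 0.121), the day of the vehicle array with a high transferrin receptor ratio. Blocked by day, with all arrays kept, the adjusted p of Ndufb11 was 0.00211.

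The dim Cox6a2 had 6.19, 6.69, 6.76 and 6.95 in TCDD cells at 48 h, against 7.75, 7.52, 8.11 and 7.68 in vehicle cells. The groups were apart (-1.12 ± 0.36, adjusted p = 0.0438), but the call was lost without replicate 1, 2 or 3 (adjusted p = 0.279, 0.169 and 0.0809). Blocked by day, with all arrays kept, its adjusted p was 0.0261. With the day as a block Ndufa5 (0.25, adjusted p = 0.0386) and Ndufaf4 (0.32, adjusted p = 0.0193) were called higher too, and Cox6b1 (-0.15) and Ndufb3 (-0.14) lower. A second Ndufaf4 probe set was called higher without the block (0.45, adjusted p = 0.0366). Of the genes called higher with TCDD at 48 h, Ndufb1, Ndufaf1 and Ndufaf2 were among those that fell with time in vehicle cells, and of those called lower, Cox6a2 and Ndufb11 were among those that rose. These 2 comparisons share the vehicle arrays of 48 h, so that such opposition is in part built in.

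**Figure D5:**
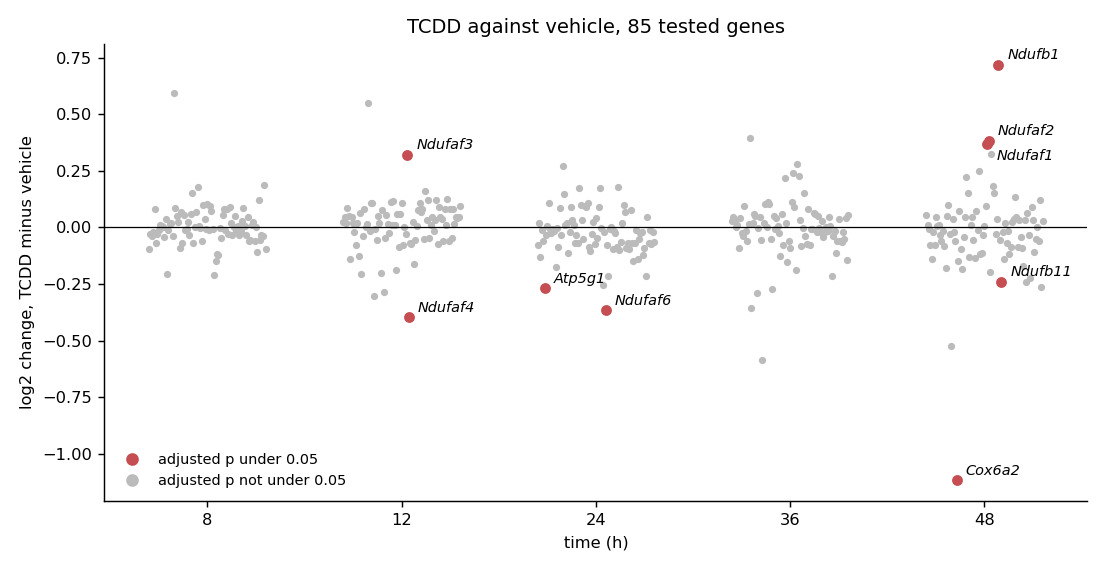
Log2 change of TCDD minus vehicle for the 85 tested genes at each time in hours, with 1 point per gene; red points had an adjusted p under 0.05 in limma. Called genes number 0 at 8 h, 2 at 12 h, 2 at 24 h, 0 at 36 h and 5 at 48 h, and most genes lie close to 0.

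Whether the effect of TCDD differed between times was tested with 1 F test per gene over the 5 times. It was called for 4 members (6.99% of all genes), and for 8 with the day as a block (16%). Ndufb1 (adjusted p = 0.000452) differed from vehicle by -0.048 at 8 h, -0.055 at 12 h, -0.0055 at 24 h, 0.15 at 36 h and 0.72 at 48 h. Ndufaf4 (adjusted p = 0.00167) differed by -0.21, -0.40, -0.26, 0.28 and 0.32 at the same times, a change of sign between 24 h and 36 h. Taken singly, only its lower level at 12 h was called in limma without the block (adjusted p = 0.141 at 36 h and 0.0545 at 48 h). With the day as a block its higher level at 48 h was called too. Ndufa5 (adjusted p = 0.0274) differed by -0.058, -0.19, -0.10, 0.22 and 0.25, and was called at no single time without the block and at 48 h with it. Ndufb11 (adjusted p = 0.0375) differed by 0.083, 0.078, -0.096, -0.075 and -0.24. Without one of the 4 days, between 1 and 2 members were called.

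Related genes outside the name rule were counted in the same fit. Between 8 h and 48 h, 22% of all genes were higher and 17.9% lower in TCDD cells, and 26.8% higher and 21.2% lower in vehicle cells. Of 76 mitochondrial ribosomal protein genes, which make the subunits coded by mitochondrial DNA, 13 were higher and 26 lower in TCDD cells at 48 h against 8 h, and 11 were higher and 36 lower in vehicle cells. Their median changes were -0.089 in TCDD cells and -0.17 in vehicle cells, where the respiratory chain members had 0.19 in both. A list of assembly factors not named Nduf also held Cyc1, cytochrome c1, which is a complex III subunit that the name rule does not take. Of its 37 tested genes, 9 were higher and 16 lower in vehicle cells. Among them were Cox17 (0.65), a copper carrier for complex IV, and Lrpprc (-0.83), which stabilises mitochondrial mRNA. Of 16 tested genes of the TCA cycle and pyruvate dehydrogenase, 7 were higher and 3 lower. The difference between these lists and the members was not tested.

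Markers of antibody-secreting cells moved in the same comparisons. In TCDD cells at 48 h against 8 h, 2 of 5 were higher (Xbp1 by 0.84 and Jchain by 0.83) and 2 lower (Irf4 by -0.42 and Prdm1 by -0.35), and their summed intensity lay between 18688 and 19730 at 48 h and between 14837 and 16397 at 8 h. In vehicle cells 3 were higher (Xbp1 by 1.69, Jchain by 1.24 and Sdc1 by 0.96) and Irf4 was lower (-0.49), and the sum lay between 23637 and 24942 at 48 h and between 15048 and 15442 at 8 h. At 48 h TCDD cells had 2 of the 5 below vehicle cells, Sdc1 by -1.06 and Xbp1 by -0.39, beside 4.5% of all genes called lower. The part of these cells in the changes of the respiratory chain genes was not tested.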

How the data were processed

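RNA of 44 samples was measured on 1-colour Affymetrix Mouse 430 2.0 arrays. The deposited intensity values are linear. The submitters' processing notes name GCOS 1.0. The columns were found to share a mean of 500 once 2% is trimmed at either end. No other step is stated in the labels. From these intensities, 64 control probe sets were left out, and the rest were quantile normalized and turned into log2(value + 16). Each gene was represented by the single-symbol probe set with the highest mean, and genes with a highest group mean above the median of all values (6.21) were tested. Another 10 probe sets that name a member beside a second gene were not used. limma 3.58.1 in R 4.3.3 fitted 11 group means (two-sided, Benjamini-Hochberg adjustment over 11969 genes per comparison). The number of arrays limits the precision. The fit was tested on simulated data.

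Replicate numbers stand for days, per the series' design text and the titles. The median correlation of deviations from group means was 0.176 between same-numbered arrays and -0.0655 between others, and 18 of 20 pairs of TCDD and vehicle arrays exceeded 0.1. The fit without the day is the main one. Blocked values are given where they change a described call or move a count by over 1.5 times. They are also given for TCDD calls that were lost when a day was left out. Per-array values were given for the called genes with the largest changes in each comparison, the widest-ranging genes of each complex, fixed core subunits and isoforms. The members and lists were chosen with earlier results of these data known. Promoters come from RefSeq (GRCm38.p6), in which 75 of 91 members have an entry. Alternatives were other pseudocounts, filters, probe set rules and scaling, a fit of the compared arrays alone, and leaving out each day or 4 arrays. Days and arrays were left out in the fit without the day as a block.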

Additional observations from a re-analysis of the deposited data

Results flagged for a closer look

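Among 94 sets of 4 arrays of a described gene and 11 sets of array medians, 7 had 1 array far from the other 3, and chance gives about 1 in 20. In vehicle cells at 48 h these were the low arrays of Uqcrh (12.22), Ndufs1 (10.98) and Cycs (13.68), and in vehicle cells at 8 h the low array of Atp5b (14.09). In TCDD cells at 48 h they were the high array of Ndufa13 (13.42) and the low array of Ndufaf4 (11.02). The median deviation of the members was high on 1 untreated array (0.035), replicate 4, which also has the highest median signal (99.2). The Ndufs1 array is the one with a transferrin receptor ratio of 3.12 (log2).

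The effect of TCDD differed between times by the F test of limma for Ndufb1 (adjusted p = 0.000452), Ndufaf4 (adjusted p = 0.00167), Ndufa5 (adjusted p = 0.0274) and Ndufb11 (adjusted p = 0.0375).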

How the results depend on the processing

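Of the 62 described gene changes, most kept direction and call: over the 15 alternatives 810 values did so, 106 lost the call, 6 gained it and 7 turned. Those that turned were Sdha between 48 h and 8 h in vehicle cells (-0.035 to 0.025 when each replicate was left out, with 0.024 without replicate 2 and 0.025 without replicate 4, and 0.012 without the 4 arrays that stood apart, against -0.0021), Uqcrc1 in the same comparison (-0.0019 with the values as deposited, against 0.054), and Uqcrq with the mean of its probe sets (-0.16 at 24 h and -0.068 at 36 h against untreated cells, and -0.029 between 48 h and 8 h). The cause was not tested.

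Counts of members called moved as follows, and the shares of all genes called moved as well. Without the 4 arrays, 10.1% of all genes were called for TCDD at 12 h and 7.53% at 36 h, against 9.22% and 5.91% with all arrays. For vehicle against untreated cells they were then 20.6% at 8 h, 18.5% at 12 h and 15.3% at 24 h. Where no such share is given here or above, the counts are not set against all genes. For TCDD against vehicle, the 2 at 12 h became 1 with no filter, 0 with only the arrays compared and 4 without the 4 arrays. The 2 at 24 h became 1 with the mean of probe sets, 1 with no filter, 0 with only the arrays compared and 4 with the day as a block. The 0 at 36 h became 2 with the block and 1 without the 4 arrays. The 5 at 48 h became 2 with only the arrays compared and 9 with the block. For vehicle against untreated cells, the 9 at 8 h became 16 with all probe sets, 2 with only the arrays compared, 18 with the block and 3 without the 4 arrays. The 4 at 12 h became 12 with all probe sets, 7 with the mean of probe sets, 1 with only the arrays compared, 12 with the block, 7 with a stricter filter and 2 without the 4 arrays. The 5 at 24 h became 8 with all probe sets, 2 with no filter, 0 with only the arrays compared, 8 with the block and 1 without the 4 arrays. The 15 at 36 h became 25 with all probe sets, 7 with only the arrays compared and 23 with the block. The 43 at 48 h became 80 with all probe sets and 24 with only the arrays compared. Between 48 h and 8 h, all probe sets gave 99 in vehicle cells, against 56 genes, and 90 in TCDD cells, against 48 genes. All probe sets are 170 in number, so more can be called. Blocking by day gave 60 calls between 48 h and 8 h in TCDD cells and 62 in vehicle cells, and 52 for vehicle at 48 h against untreated cells. The interaction count of 4 became 2 with no filter and 8 with the block.

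Leaving out each day gave 0 to 0 calls for TCDD at 8 h, 0 to 1 at 12 h, 0 to 2 at 24 h, 0 to 1 at 36 h and 3 to 3 at 48 h. For vehicle against untreated cells it gave 5 to 6 at 8 h, 1 to 3 at 12 h, 1 to 3 at 24 h, 10 to 13 at 36 h and 31 to 44 at 48 h. Between 48 h and 8 h it gave 42 to 53 in vehicle cells and 41 to 45 in TCDD cells, and 1 to 2 for the interaction. None of these ranges is set against the share of all genes called. With the values as deposited, the share of calls that were higher was 75% for TCDD at 48 h, against 60% after quantile normalization, 57.1% for vehicle at 8 h against untreated cells (33.3%) and 80% at 12 h (50%), and the median of all genes between 48 h and 8 h in vehicle cells shifted by 0.13 in place of 0.042. Dim probe sets (Cox4i2, Cox6a2, Cox7c) limit what can be read from those genes, and Cox7c did not pass the stricter filter.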

Other observations

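Among 14 tested regulators of mitochondrial biogenesis, 2 were lower with TCDD than with vehicle at 8 h: Myc, a growth regulator (-0.68 ± 0.092 SE, adjusted p = 2.03e-06 in limma), and Ppargc1b, a coactivator of respiratory genes (-0.60 ± 0.13, adjusted p = 0.00296). At that time none of the 85 respiratory chain genes was called, and of all genes 2.73% were called higher and 1.41% lower. In vehicle cells at 48 h against 8 h, 2 of the regulators were higher and 6 lower, beside 26.8% higher and 21.2% lower of all genes. Among them were Tfb1m (0.96, adjusted p = 5.91e-08), which methylates mitochondrial ribosomal RNA, and Tfb2m (-0.92, adjusted p = 5.71e-09), which starts mitochondrial transcription. Of 8 tested genes of lactate and pyruvate handling, 1 was higher (Mpc1, the pyruvate carrier, 0.41, adjusted p = 0.0171) and 3 were lower in the same comparison. Slc16a1, a lactate transporter, fell furthest of these (-1.18, adjusted p = 1.71e-13).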
